A study of Mus musculus with 6 samples.

Results

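The acute phase and calprotectin genes described here are 10 mouse genes, Hp, Orm1, Saa1, Saa2, Saa3, S100a8, S100a9, Lcn2, Steap4 and Timp1, out of 18193 genes measured. All 10 were on the array, with 12 probe sets in all, each with a single symbol in the array's probe table. For a gene with several probe sets, the one with the highest mean level over all 6 arrays stands for the gene. The genes were chosen with the difference between the groups already known. Their values in that comparison are therefore a description and support nothing by themselves, and no measure independent of that choice was available to test.

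The tested mice were given DBZ, an inhibitor of gamma-secretase, the protease that cuts Notch receptors inside the membrane and so frees their signalling fragment. The mice they were set against were given the vehicle, DMSO. Each group had 3 mice, and all 6 carried the Lgr5-EGFP-IRES-creERT2 allele, in which the Lgr5 gene drives a green fluorescent protein and an inducible Cre. Cells with high fluorescence were sorted from the small intestine at 24 h, and RNA of each mouse went on 1 array. The titles give the groups, while a second label names DMSO for all 6 samples. The labels give no age, sex or genetic background of the mice. The marker Lgr5 itself was at 242, 209 and 239 intensity units in DBZ replicates 1, 2 and 3, and at 204, 260 and 271 in vehicle replicates 1, 2 and 3. Summed intestinal epithelium markers ranged from 132056 to 141139 on DBZ arrays and from 128900 to 142623 on vehicle arrays, so the labelled tissue was present in both.

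Acute phase proteins are plasma and tissue proteins whose production rises in inflammation or injury. The liver makes most of them, under interleukin-6 and interleukin-1, through the transcription factors STAT3, NF-kB and C/EBP, but epithelium, fat tissue and macrophages make some as well. Calprotectin is the pair of the S100a8 and S100a9 proteins, which binds zinc and manganese and so withholds them from microbes. It is abundant in neutrophils, and epithelium can also make it under stress.

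Values are the authors' deposited probe set intensities, in linear array units. Differences between groups are given as DBZ minus vehicle on the log2(intensity + 16) scale, which understates the change of dim genes. They come with the moderated standard error (SE) of limma, a linear model fitted over all 18193 genes. A gene is called changed when its Benjamini-Hochberg adjusted p (limma, two-sided) is under 0.05. Each array measured all sorted cells together, so a change within cells and a change in the share of cells of a type cannot be told apart.

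By that fit 7 of the 10 genes rose with DBZ, beside 3.82% of all genes called higher. They were Hp, Saa3, S100a8, S100a9, Lcn2, Steap4 and Timp1, with log2 differences of 2.42 to 5.02 and adjusted p of 0.0041 to 0.042 (limma). Saa1, Saa2 and Orm1 did not pass, and 0 of the 10 fell, beside 1.52% of all genes called lower. In a separate fit over all probe sets, 6 of the 12 probe sets were called higher, beside 1.39% of all of them, and Lcn2 missed the threshold (limma, adjusted p = 0.058). The 3 DBZ arrays all lay above the 3 vehicle arrays for the same 7 genes, as they did for 17.3% of all genes. The median log2 difference was 3.16 over the 10 genes and -0.017 over all genes. Since the genes were chosen on this comparison, nothing is read from these counts.

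**Figure D1:**
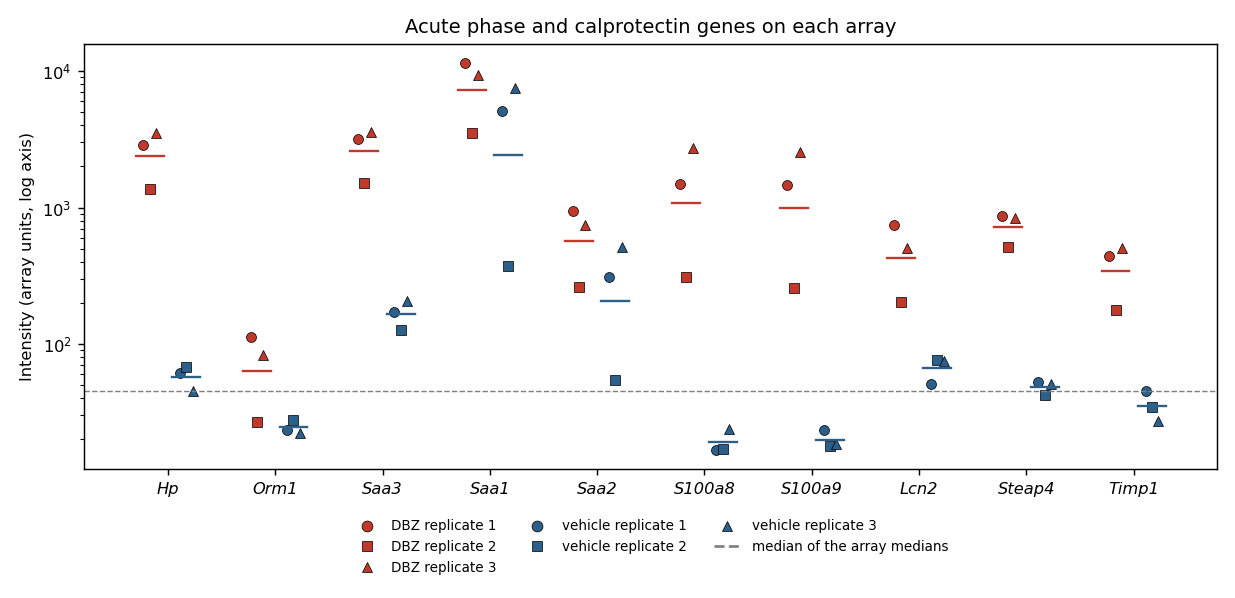
Intensity (log axis) of the 10 genes on each of the 3 DBZ arrays (red, left) and 3 vehicle arrays (blue, right), with the marker shape giving the replicate, a bar at the geometric mean of each group, and a dashed line at the median of the array medians. The groups are apart for 7 genes and overlap for Orm1, Saa1 and Saa2, and DBZ replicate 2 (square) is the lowest DBZ array for all 10.

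The stretch of 250 bases before the annotated start was read for 8 of the 10 genes from RefSeq sequence (build GRCm38.p6); Hp and Orm1 had no entry. It was searched on both strands for TTGCNNAA (C/EBP type), GGGNNTTTC (NF-kB type, without its last base) and TTCNNNGAA (STAT type), where N is any base. TTGCNNAA was found before 6 of the 8 genes, Saa1, Saa2, Saa3, S100a9, Lcn2 and Steap4, and in 9.56% of the 32851 windows of that length in the table. The Saa3 window lay inside the annotated span of that gene, and the Saa1 window lay mostly inside that of Saa1. GGGNNTTTC was found before S100a9 and Steap4, against 3.72% of windows, and TTCNNNGAA before Steap4, against 7.02%. S100a8 and Timp1 held none of the 3. A match to such short letters is a description of the sequence, not a binding site.

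The 4 windows below belong to genes with a match and with an annotated start at the outer end of the gene, and are printed 5′ to 3′ on the gene's strand, with matches in capitals. Steap4 (chr5:7960222-7960471, plus strand) is shown because it held all 3 motifs, in the order NF-kB type, STAT type and C/EBP type. S100a9 (chr3:90695722-90695971, minus strand) held the C/EBP type first and the NF-kB type after it. Lcn2 (chr2:32387740-32387989, minus strand) and Saa2 (chr7:46751583-46751832, plus strand) held the C/EBP type alone.
Steap4: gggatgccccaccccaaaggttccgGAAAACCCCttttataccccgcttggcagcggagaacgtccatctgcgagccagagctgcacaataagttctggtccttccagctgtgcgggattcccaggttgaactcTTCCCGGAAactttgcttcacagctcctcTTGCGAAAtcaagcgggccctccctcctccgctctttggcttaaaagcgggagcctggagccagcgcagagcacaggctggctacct
S100a9: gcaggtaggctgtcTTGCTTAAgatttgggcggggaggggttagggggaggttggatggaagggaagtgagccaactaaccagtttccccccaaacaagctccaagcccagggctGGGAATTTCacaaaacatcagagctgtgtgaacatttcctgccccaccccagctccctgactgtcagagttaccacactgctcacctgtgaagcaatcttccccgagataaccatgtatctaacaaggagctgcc
Lcn2: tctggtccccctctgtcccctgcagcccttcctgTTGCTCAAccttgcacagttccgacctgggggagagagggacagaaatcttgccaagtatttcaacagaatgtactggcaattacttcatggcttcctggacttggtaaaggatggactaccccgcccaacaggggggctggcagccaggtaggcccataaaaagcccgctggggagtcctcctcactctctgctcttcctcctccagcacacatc
Saa2: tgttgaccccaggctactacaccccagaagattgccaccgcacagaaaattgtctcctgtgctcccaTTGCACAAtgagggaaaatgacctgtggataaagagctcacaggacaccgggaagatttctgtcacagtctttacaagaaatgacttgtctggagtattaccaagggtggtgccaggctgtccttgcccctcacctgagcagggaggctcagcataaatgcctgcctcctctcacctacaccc
Saa1 and Saa2 lie next to each other on chromosome 7, and their windows were identical at 238 of 250 bases when aligned. Both held the same 8 letters, TTGCACAA. Saa1 and Saa3 were identical at 154 bases, and S100a8 and S100a9, neighbours on chromosome 3, at 143. The alignment allowed gaps and no unrelated windows were aligned for comparison, so nothing is read from these lower counts.

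Haptoglobin and orosomucoid are plasma glycoproteins of the acute phase. Hp, whose protein captures haemoglobin released from red cells, was at 2851, 1356 and 3504 intensity units in DBZ replicates 1, 2 and 3, against 61.7, 68.3 and 45.4 in vehicle replicates 1, 2 and 3. The lowest DBZ array was 19.8 times the highest vehicle array. Its log2 difference, 5.02 ± 0.35 (SE, n = 3 per group), ranked 1 among all genes by signed difference, that is among those higher with DBZ. Orm1, which encodes a carrier of lipophilic molecules in plasma, was much dimmer, at 113, 26.7 and 83.6 in DBZ arrays and 23.4, 27.9 and 22.5 in vehicle arrays. DBZ replicate 2 lay among the vehicle arrays, and the groups overlapped. The log2 difference of Orm1 was 1.01 ± 0.39 (SE; limma, adjusted p = 0.17), and without DBZ replicate 2 it was 1.48 (limma, adjusted p = 0.022). Orm1 has close copies, Orm2 and Orm3, and the file gives no means to tell how far its probes separate them. Orm2 and Orm3, listed as other acute phase genes, lay below the array median on every array.

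Serum amyloid A genes encode small lipoprotein-bound acute phase proteins. Saa3, the form made in mice mostly outside the liver, was at 3197, 1506 and 3603 intensity units in DBZ replicates 1, 2 and 3, against 172, 126 and 206 in vehicle replicates 1, 2 and 3. The groups were far apart, with a log2 difference of 3.85 ± 0.35 (SE, n = 3 per group). Saa1, made by liver and by intestinal epithelium, was already bright without DBZ, and its groups overlapped. It was at 11390, 3535 and 9310 in DBZ replicates 1, 2 and 3, against 5082, 375 and 7538 in vehicle replicates 1, 2 and 3. Replicate 2 was the low array in both groups. The log2 difference was 1.55 ± 1.15 (SE; limma, adjusted p = 0.45), and without vehicle replicate 2 it was 0.22 (limma, adjusted p = 0.84). Without vehicle replicate 3 it was 2.36 (limma, adjusted p = 0.32). With the replicate number as a block in the fit it was 1.55 ± 0.58 (SE; limma, adjusted p = 0.19), though the labels pair no arrays.

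Saa2 followed the same order, at 946, 262 and 743 intensity units in DBZ replicates 1, 2 and 3, against 312, 54.6 and 514 in vehicle replicates 1, 2 and 3. Its log2 difference was 1.35 ± 0.83 (SE; limma, adjusted p = 0.36), and 0.49 without vehicle replicate 2 (limma, adjusted p = 0.65). Without vehicle replicate 3 it was 1.95 (limma, adjusted p = 0.27). With the replicate number as a block in the fit it was 1.35 ± 0.30 (SE; limma, adjusted p = 0.079). The other probe set named Saa1 was at 9098, 2443 and 6649 in DBZ arrays and 3176, 262 and 5554 in vehicle arrays. The transcript that the probe table gives for it is the one it gives for the Saa2 probe set. The genes are near-identical copies, so how far each probe set separates them is uncertain. Among the 9096 genes brighter than the median gene, Saa1 and Saa2 ranked 2 and 3 by the ratio of the highest to the lowest vehicle array, which was 20.1 for Saa1 and 9.41 for Saa2. The median of that ratio over those genes was 1.20.

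S100a8 and S100a9 were close to the floor of the arrays without DBZ. S100a8 was at 1486, 308 and 2746 intensity units in DBZ replicates 1, 2 and 3, against 16.9, 17 and 24 in vehicle replicates 1, 2 and 3. S100a9 was at 1456, 259 and 2532 in DBZ arrays and 23.6, 17.8 and 18.4 in vehicle arrays. The groups did not overlap, and the 2 genes kept the same order over the DBZ arrays, with the highest 8.92 times the lowest for S100a8 and 9.76 times for S100a9. Their log2 differences were 4.97 ± 0.74 and 4.82 ± 0.78 (SE, n = 3 per group). The root mean square difference between their log2 profiles over the 6 arrays, each centred on its own mean, was 0.17, smaller than that of either gene to any other of the 10. All 6 vehicle values lay below the array median, so the sizes depend on the pseudocount. S100a8 stood at 5.75 with a pseudocount of 1 and at 3.82 with one of 64, and S100a9 at 5.57 and 3.69.

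Lcn2, Steap4 and Timp1 make up the rest of the 10 genes. Lcn2, or lipocalin 2, binds the iron carriers of bacteria. It was at 746, 202 and 503 intensity units in DBZ replicates 1, 2 and 3, against 50.8, 76.5 and 74.6 in vehicle replicates 1, 2 and 3, a log2 difference of 2.42 ± 0.45 (SE). Steap4, a membrane reductase of iron and copper, was at 872, 511 and 841 in DBZ arrays and 52.3, 42.5 and 50.9 in vehicle arrays. It had the smallest spread of the 10 genes over the DBZ arrays, a highest to lowest ratio of 1.71, and a log2 difference of 3.52 ± 0.21. Timp1, an inhibitor of matrix metalloproteinases, was at 439, 179 and 503 in DBZ arrays and 45, 34.6 and 27.4 in vehicle arrays, a log2 difference of 2.81 ± 0.38. The groups were apart for all 3 genes.

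The other probe set of Steap4 was dim in both groups and moved little. It was at 104, 54.3 and 69.4 intensity units in DBZ arrays and 58.1, 50.1 and 48.3 in vehicle arrays, a log2 difference of 0.40 ± 0.20 (SE; limma over all probe sets, adjusted p = 0.30). The groups overlapped there. With the mean of both probe sets Steap4 stood at 1.96 (limma, adjusted p = 0.017), so both the size and the call of Steap4 depend on the probe set read.

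**Figure D2:**
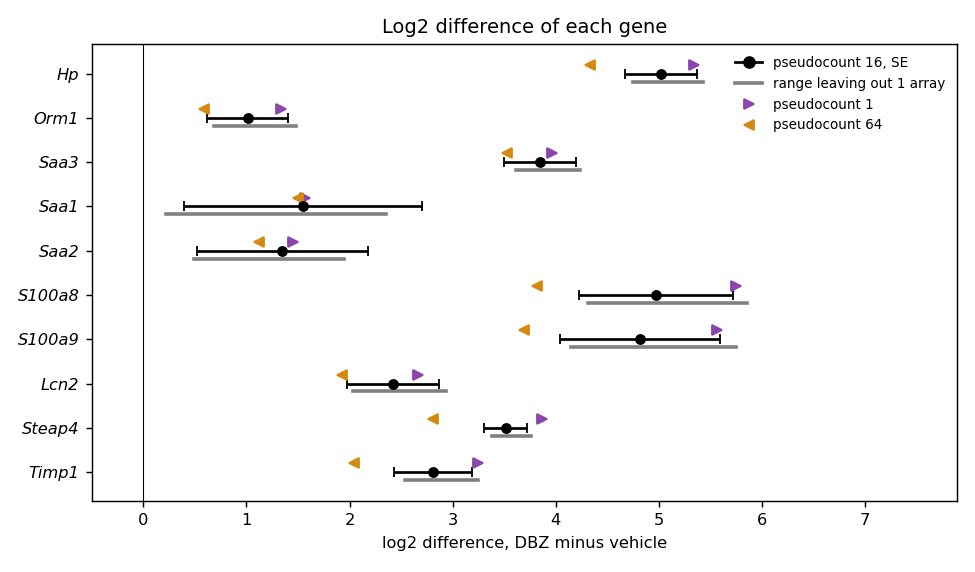
Log2 difference, DBZ minus vehicle, of each gene with its moderated standard error (black), the range when 1 array is left out (grey bar), and the value with a pseudocount of 1 (purple) or 64 (orange). The bars of Saa1 and Saa2 are the widest downward, reaching 0.22 and 0.49, and the pseudocount moves S100a8 and S100a9 most, from 3.82 to 5.75 and from 3.69 to 5.57.

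The calls rest on few arrays. Leaving out DBZ replicate 1, 2 or 3 gave 7, 8 or 5 called genes among the 10. Leaving out vehicle replicate 1, 2 or 3 gave 2, 1 or 2. Over all genes the number changed was 972, or 5.34%. That number became 2032, 217 or 352 when DBZ replicate 1, 2 or 3 was dropped, and 49, 19 or 38 when vehicle replicate 1, 2 or 3 was dropped. Steap4 kept its call under all 17 alternatives. Hp lost it without vehicle replicate 2 alone (limma, adjusted p = 0.051), while the other 5 lost theirs under 3 to 6. None of the 10 log2 differences changed sign under any alternative run.

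DBZ replicate 2 was the lowest DBZ array for all 10 genes. Its level was between 0.13 times (S100a9) and 0.60 times (Steap4) the mean of DBZ replicates 1 and 3. Among the genes brighter than the median gene, 25.5% had their lowest DBZ value on that array, and 32.8% of the 545 called higher among them did. DBZ replicates 1 and 3 shared the top, with 5 genes highest on each. Saa1, Saa2, Orm1, Lcn2 and Steap4 were highest on replicate 1, and Hp, Saa3, S100a8, S100a9 and Timp1 on replicate 3.

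Markers of other cell types moved over the same arrays. Mesothelium markers summed to 1054, 597 and 1579 in DBZ replicates 1, 2 and 3, and to 474 to 509 in vehicle arrays. All 10 measured mesothelium genes were lowest on DBZ replicate 2 among the DBZ arrays. Of the 10, 0 passed the test (limma; 8 had an unadjusted p under 0.05), beside 3.82% of all genes called higher. All 10 differences were positive, and 8 genes had all DBZ arrays above all vehicle arrays, beside 17.3% of all genes. Upk3b, a uroplakin of mesothelial cells, was at 188, 47 and 290 in DBZ replicates 1, 2 and 3, against 19.2, 20.9 and 18.1 in vehicle replicates 1, 2 and 3 (limma, adjusted p = 0.075). Adipocyte markers summed to 17153, 12165 and 29721 in DBZ arrays, against 2637 to 5635 in vehicle arrays. Of 10 measured adipocyte genes 3 rose, beside 3.82% of all genes called higher. They were Adipoq, Retn and Car3, which encode a fat cell hormone, resistin and a carbonic anhydrase abundant in fat. Their calls were lost under 9, 7 and 5 of 17 alternatives. Of the 10, 8 differences were positive, and the median was 1.53. In 6 genes all DBZ arrays lay above all vehicle arrays, beside 17.3% of all genes. Of these adipocyte genes Lep, the leptin gene, alone lay below the array median on every array. The part of either cell type in the values of the 10 genes was not tested.

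Neutrophil markers gave a mixed picture beside calprotectin. The sum of 13 measured genes was 1506 to 2716 in DBZ arrays and 631 to 876 in vehicle arrays. Without Cd177 the sum was 556 to 1041 in DBZ arrays and 495 to 614 in vehicle arrays, and the groups overlapped. Cd177, a surface protein of neutrophils that is also found in other cells, rose to 1177 ± 432 in DBZ arrays, against 229 ± 101 in vehicle arrays (SD, n = 3; limma, adjusted p = 0.031). It was the only one of the 13 called, beside 3.82% of all genes called higher. Of the 13, 8 differences were positive, and 9 genes lay above the array median on at least 1 array. For 3 of them all DBZ arrays lay above all vehicle arrays, as they did for 17.3% of all genes. On DBZ replicate 2, 10 of the 13 were lowest among the DBZ arrays, with a sum 0.70 times the mean of DBZ replicates 1 and 3. The members of the list below the array median on every array were the granule genes Elane and Ltf, the chemokine receptor gene Cxcr2, and Trem1. Elane was at 25.9, 25.1 and 23.3 in DBZ arrays and 26.6, 26.5 and 26.7 in vehicle arrays. Ly6g, Retnlg and Fpr1 were listed but not measured.

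Fibroblast and smooth muscle markers summed to 48853, 50513 and 57436 in DBZ replicates 1, 2 and 3, against 22369, 28040 and 33024 in vehicle arrays. Of these 15 genes 8 rose, beside 3.82% of all genes called higher, and 14 differences were positive. For 13 of them all DBZ arrays lay above all vehicle arrays, beside 17.3% of all genes. On DBZ replicate 2 their sum was 0.95 times the mean of DBZ replicates 1 and 3, and 8 of the 15 genes were lowest there among the DBZ arrays. Macrophage markers summed to 8228 to 14140 in DBZ arrays and 8021 to 9667 in vehicle arrays, with 0 of 12 called (limma; 8 had an unadjusted p under 0.05). Of the 12, 11 differences were positive, with a median of 0.64. For 6 genes all DBZ arrays lay above all vehicle arrays, beside the same 17.3%. On DBZ replicate 2, 11 of the 12 were lowest among the DBZ arrays, with a sum 0.68 times the mean of DBZ replicates 1 and 3. Hepatocyte markers summed to 2867, 3071 and 6618 in DBZ replicates 1, 2 and 3, against 1284, 2093 and 1053 in vehicle replicates 1, 2 and 3. These sums did not overlap between the groups, but the list median was 0.05. By the fit 1 of the 10 rose, beside 3.82% of all genes. For 3 genes all DBZ arrays lay above all vehicle arrays, beside 17.3% of all genes, and for 3 all lay below, beside 15.8%. Of the 10 hepatocyte markers 6 lay below the array median throughout, among them Alb, the albumin gene, at 16.8, 16.1 and 17 in DBZ arrays and 16.4, 16.6 and 16.6 in vehicle arrays. Hpd, an enzyme of tyrosine breakdown that other tissues also express, rose by a log2 difference of 1.44 ± 0.06 (SE; limma, adjusted p = 0.0015). It was at 1110, 1026 and 1116 in DBZ arrays and 380, 391 and 393 in vehicle arrays, and so held only part of the hepatocyte sums. Endothelium markers summed to 1945 to 2194 in DBZ arrays and 1509 to 1567 in vehicle arrays. Of these 12 genes 3 rose, beside the same 3.82% of all genes. All 12 differences were positive, with a median of 0.42, and 10 genes had all DBZ arrays above all vehicle arrays, beside the same 17.3%. The part of these cells was not tested. For the actin control probes, whose 3′ over 5′ signal reflects how intact the RNA was, that quotient was 1.51 to 1.57 in DBZ arrays and 1.61 to 2.22 in vehicle arrays, without overlap. For the Gapdh control it was 1.05 to 1.09 in DBZ arrays and 1.07 to 1.42 in vehicle arrays, with overlap, and the part of either was not tested.

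**Figure D3:**
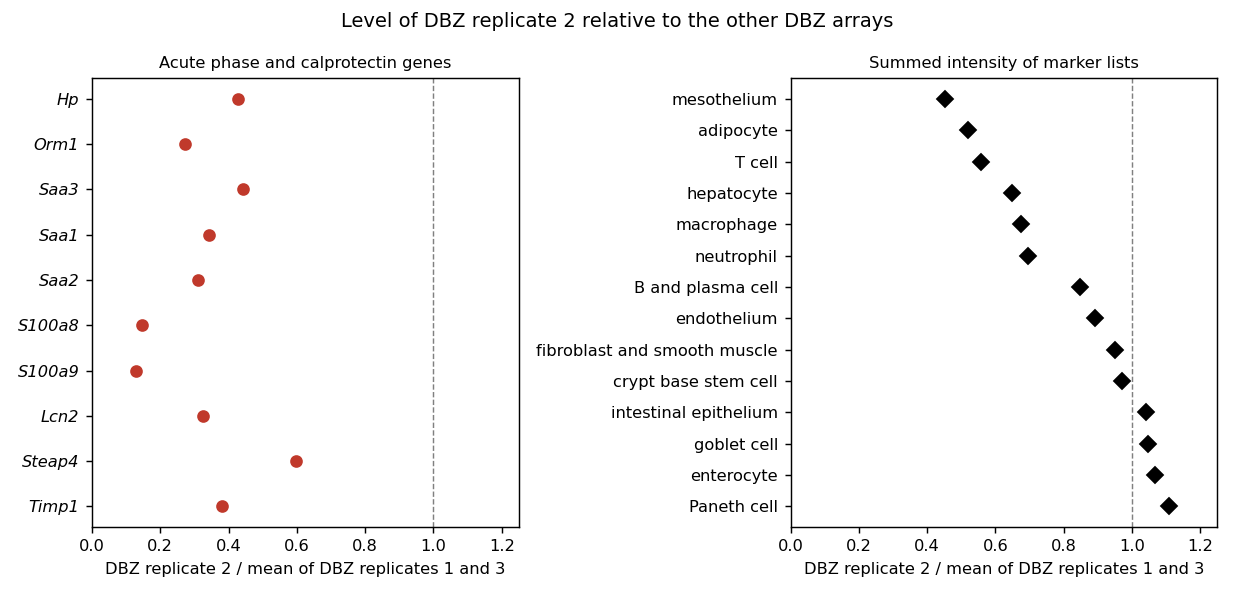
Level of DBZ replicate 2 divided by the mean of DBZ replicates 1 and 3, for each of the 10 genes (left) and for the summed intensity of each marker list (right), with a dashed line at equality. The 10 genes lie at 0.13 to 0.60, the mesothelium and adipocyte sums at 0.45 and 0.52, and the intestinal epithelium sum at 1.04.

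Other acute phase genes rose in part. Of 23 measured 4 rose and 0 fell, beside 3.82% of all genes called higher and 1.52% called lower, and the list median was 0.09. Differences were positive for 15 genes and negative for 8, and the 8 all lay below the array median on every array. For 8 genes all DBZ arrays lay above all vehicle arrays, beside 17.3% of all genes. For 1 gene all lay below, beside 15.8%. Lrg1, a secreted leucine-rich glycoprotein, was at 298, 198 and 410 intensity units in DBZ replicates 1, 2 and 3, against 32.8, 38.6 and 33 in vehicle replicates 1, 2 and 3 (log2 difference 2.59 ± 0.24, SE; limma, adjusted p = 0.013). Serpina3n, a protease inhibitor, rose by 2.27 ± 0.17 and Mt2, a metal-binding metallothionein, by 0.95 ± 0.15. Pla2g2a, a secreted phospholipase that Paneth cells also make, rose by 2.18 ± 0.39. In contrast, 13 of the 23 lay below the array median on every array. They included Saa4, the fibrinogen genes Fga, Fgb and Fgg, and Crp, the gene of C-reactive protein, all known as plasma proteins made chiefly by liver. Negative acute phase genes, which liver turns down in inflammation, had 0 of 7 called (limma; 0 at an unadjusted p under 0.05). Rbp4, the plasma carrier of retinol, was at 0.59 ± 0.26 and Ahsg, fetuin-A, at -0.26 ± 0.11.

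Of 20 measured genes of the interleukin-6 family and STAT3 pathway, 3 rose and 0 fell, with a median of 0.06, beside 3.82% of all genes called higher and 1.52% called lower. Osmr, the oncostatin M receptor, was at 408 ± 80.3 in DBZ arrays and 135 ± 21.2 in vehicle arrays (SD, n = 3). Il6st, the shared signalling receptor gp130, was at 822 ± 74.2 in DBZ and 324 ± 45.6 in vehicle arrays, and Stat3, the transcription factor they act through, at 1537 ± 104 in DBZ and 966 ± 184 in vehicle arrays. Their log2 differences were 1.48 ± 0.17, 1.31 ± 0.12 and 0.67 ± 0.14 (SE; limma, adjusted p = 0.022, 0.013 and 0.049). Stat3 lost its call under 12 of 17 alternatives. The ligand genes Il6, Il11 and Osm lay below the array median on every array.

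Of 26 genes of the interleukin-1, TNF and NF-kB pathways 3 rose and 0 fell, with a median of 0.36, beside the same shares of all genes (3.82% higher, 1.52% lower). Of the 26, 23 differences were positive and 3 negative, and 11 genes had an unadjusted p under 0.05 (limma). For 13 genes all DBZ arrays lay above all vehicle arrays, beside 17.3% of all genes. Irak3, an inhibitor of Toll and interleukin-1 signalling, was at 198 ± 72.6 in DBZ and 41.9 ± 6.15 in vehicle arrays (SD, n = 3; limma, adjusted p = 0.027). Icam1, an adhesion molecule, rose by a log2 difference of 1.42 ± 0.24 and Il1r1, the interleukin-1 receptor, by 0.79 ± 0.13 (SE). Of 5 C/EBP family genes measured only Ddit3 was called, at 0.33 ± 0.06 (limma, adjusted p = 0.047), and it lost the call under 13 of 17 alternatives. Of 21 genes of the epithelial response to interleukin-17 and interleukin-22, Lrg1 and Cxcl5 rose, and the median was 0.19. Cxcl5, a chemokine that attracts neutrophils, was at 228, 78.2 and 155 in DBZ replicates 1, 2 and 3, against 14.2, 20 and 20.6 in vehicle replicates 1, 2 and 3 (limma, adjusted p = 0.030). Glucocorticoid response genes had a median of -0.31, and of 15 measured 0 rose and 1 fell. This was Sgk1, a kinase of sodium transport, at 2417 ± 658 in DBZ and 5603 ± 952 in vehicle arrays (SD, n = 3; limma, adjusted p = 0.045).

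Lists of relatives and partners of the 10 genes are read beside the same 3.82% of all genes called higher and 1.52% called lower. Of 12 other S100 genes 1 rose, S100a4, by 1.87 ± 0.37 (SE; limma, adjusted p = 0.048), with a list median of 0.26. Of 14 receptors and binding partners none was called (limma; 0 rose and 0 fell, and 7 had an unadjusted p under 0.05). Fpr2, a receptor for serum amyloid A, was at 148, 61.7 and 269 intensity units in DBZ replicates 1, 2 and 3, against 40.6, 39.2 and 30.4 in vehicle replicates 1, 2 and 3 (limma, adjusted p = 0.093), and Hmox2, a heme oxygenase, was at -0.18 ± 0.06. Of 14 iron handling genes, the other 3 Steap genes among them, none was called (limma; 7 had an unadjusted p under 0.05). The iron-sensing aconitase Aco1 was at -0.56 ± 0.12 and the iron chaperone Pcbp1 at 0.48 ± 0.13. Of 15 TIMPs and metalloproteinases 3 rose, with a median of 0.45. In this list 14 log2 differences were positive, and 10 genes had all DBZ arrays above all vehicle arrays, beside 17.3% of all genes. They were Mmp7 by 1.37 ± 0.23, Mmp3 by 0.69 ± 0.13 and the inhibitor Reck by 0.59 ± 0.12. Mmp7 is also a Paneth cell gene.

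These list counts share the dependence on single arrays. Without DBZ replicate 1, 2 and 3 the counts called higher were 5, 4 and 3 in the other acute phase list, 2 each time in the interleukin-6 list and 4, 1 and 2 in the NF-kB list. They were 5, 1 and 1 in the S100 list and 4, 1 and 1 in the metalloproteinase list. Without any 1 vehicle array, no gene of the other acute phase, NF-kB, C/EBP, glucocorticoid, interleukin-17, S100 and metalloproteinase lists was called. In the interleukin-6 list 1, 0 and 0 were called higher without vehicle replicate 1, 2 and 3.

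**Figure D4:**
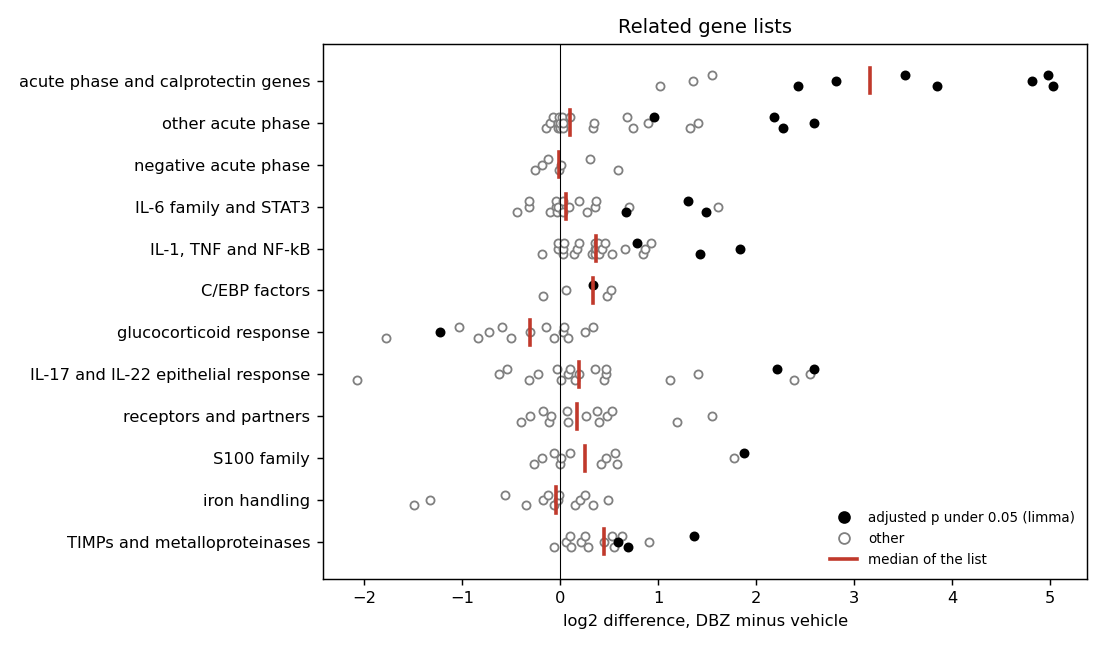
Log2 difference, DBZ minus vehicle, of every measured gene in the 10 described genes and 11 related lists, with filled points for genes past an adjusted p of 0.05 (limma) and a red bar at each list's median. The median is 3.16 for the acute phase and calprotectin genes and lies between -0.31 and 0.45 for the related lists.

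Genes of like profile were found by the root mean square difference between log2 profiles over the 6 arrays, each centred on its own mean, outside the 10 genes. The measure takes in the difference between the groups as well as that within them. Chil3, a chitinase-like protein of myeloid cells, was among the 3 nearest for 6 of the 9 genes brighter than the median gene. It was at 319, 118 and 508 intensity units in DBZ replicates 1, 2 and 3, against 13.1, 14.4 and 15.3 in vehicle replicates 1, 2 and 3, and its distance was 0.41 from Saa3 and 0.92 from Hp. Ccl9, a chemokine, was among the nearest for 5 genes and was closest to Steap4 at 0.36. Unlike the 10 genes it was lowest on DBZ replicate 1, at 4152, 5220 and 5478 in DBZ arrays and 487, 527 and 437 in vehicle arrays.

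The nearest gene to Lcn2 was Cxcl5, at a distance of 0.19, followed by Slpi and Dmkn at 0.27 and 0.28. Slpi, a secreted inhibitor of neutrophil proteases, was at 3626, 1175 and 3336 intensity units in DBZ replicates 1, 2 and 3, against 542, 536 and 436 in vehicle replicates 1, 2 and 3. Dmkn, a secreted protein of epithelia, was at 231, 81.1 and 204 in DBZ arrays and 24.3, 30.1 and 30 in vehicle arrays. Timp1 was nearest to Lrg1, at 0.27. Hp, S100a8 and S100a9 also had Car3 among their 3 nearest, at 1.00, 1.19 and 1.14. Chil3 was nearest to each of the 3, at 0.92, 0.93 and 0.88.

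Saa1 and Saa2 had another set of nearest genes, Zbp1, Ccl8 and Igtp, at 0.84, 0.95 and 0.99 from Saa1 and 0.45, 0.57 and 0.60 from Saa2. Zbp1, a nucleic acid sensor, and Igtp, a GTPase, are both known as interferon-inducible, and Ccl8 is a chemokine. Zbp1 was at 800, 329 and 1067 intensity units in DBZ replicates 1, 2 and 3, against 500, 140 and 522 in vehicle replicates 1, 2 and 3. Replicate 2 was the low array in both groups for all 3 genes, and none passed the test (limma, adjusted p = 0.39 for Zbp1, 0.087 for Ccl8 and 0.48 for Igtp).

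T cell markers had the same low arrays. Their sum was 5116, 2856 and 5142 in DBZ replicates 1, 2 and 3, against 9825, 4944 and 9557 in vehicle replicates 1, 2 and 3. All 11 were lowest on vehicle replicate 2 among the vehicle arrays, and 9 were lowest on DBZ replicate 2. None of the 11 was called, beside 1.52% of all genes called lower (limma; 3 had an unadjusted p under 0.05). All 11 differences were negative, with a median of -0.44. In 1 gene all DBZ arrays lay below all vehicle arrays, beside 15.8% of all genes. Gzma, a granzyme of cytotoxic lymphocytes, was at 1454, 643 and 1537 in DBZ arrays and 3520, 1922 and 4220 in vehicle arrays (limma, adjusted p = 0.10). Across groups the T cell sum was lower in DBZ arrays, at 0.54 times the vehicle mean, while Saa1 averaged 8078 ± 4070 in DBZ and 4332 ± 3640 in vehicle arrays (SD, n = 3). The part of these cells in the Saa1 and Saa2 values was not tested.

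**Figure D5:**
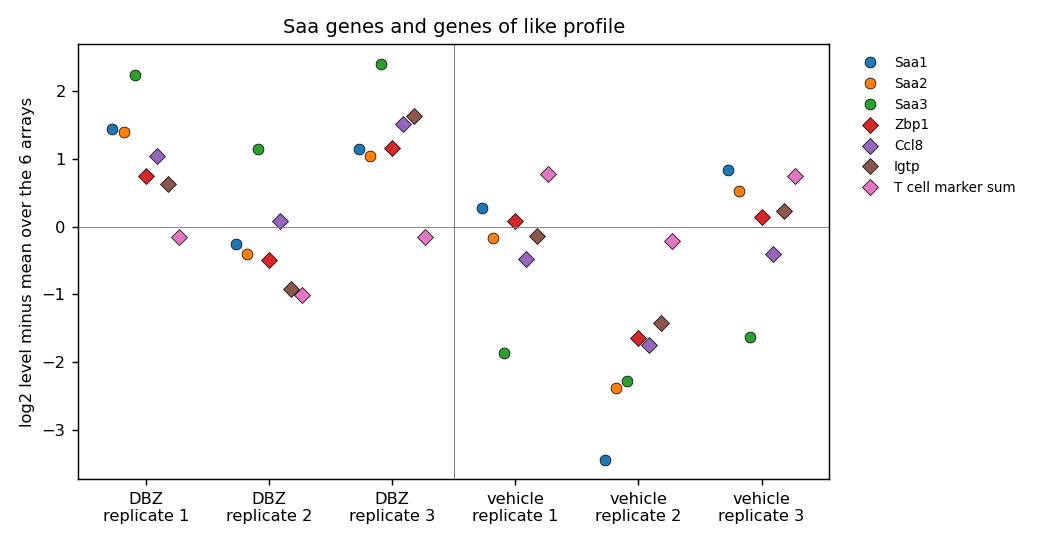
Log2 level on each array minus the mean over the 6 arrays, for Saa1, Saa2 and Saa3 (circles), the 3 genes most like Saa1 and Saa2 and the summed T cell markers (diamonds), with DBZ arrays left and vehicle arrays right. Saa1, Saa2, Zbp1, Ccl8, Igtp and the T cell sum are lowest on replicate 2 within each group, and Saa3 separates the groups.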

How the data were processed

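Per the labels' protocols, total RNA from the sorted cells went through an Affymetrix 3′ IVT amplification and carried biotin. The authors deposited 1 intensity per probe set and array, on a linear scale. Which software, background correction or normalization they used is not stated in any label or header. Array medians were 44.9 to 46.3 and differed by 0.034 on the log2 scale, under the limit of 0.1, so values were not normalized again. Of 45101 probe sets, 64 controls, 932 with several symbols and 9160 without one were left out. Genes (18193) were fitted as log2(intensity + 16) by lmFit and eBayes of limma 3.58.1 under R 4.3.3, two-sided, with Benjamini-Hochberg adjustment. An exact permutation test of 3 against 3 arrays cannot go below p = 0.1 and was not used. The fit was tested on simulated data.

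The 10 genes, the 25 other lists (297 of 317 genes measured), the motifs and the alternatives were chosen with earlier results of these data known. The naming rule takes all 10 genes, up to 4 called genes of each list by size of difference (otherwise up to 2 by smallest p), and, for each of the 10 brighter than the median gene, the 3 genes of nearest profile, leaving out predicted genes. Genes named beyond it were chosen after their values were seen: Lep, Elane, Ltf, Cxcr2, Trem1, Alb, Orm2, Orm3, Saa4, Fga, Fgb, Fgg, Crp, Il6, Il11, Osm and Lgr5. Promoter windows come from RefSeq and were aligned with Biopython 1.88. Same-numbered DBZ and vehicle arrays are not paired by the labels. Precision is limited by having 3 arrays in a group.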

Additional observations from a re-analysis of the deposited data

How the results depend on the processing

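The count of changed genes moved most. It was 972 (695 higher, 277 lower) and became 2690 (1660 and 1030) with array weights, 1530 (1075 and 455) with genes above the array median on at least 3 arrays, and 440 (310 and 130) with a pseudocount of 64. Leaving out 1 array gave 19 to 2032 (16 to 1305 higher, 3 to 727 lower). Of the 10 genes, 7 were higher, against 3 with a pseudocount of 64 and 1 to 8 without 1 array. Pseudocount 64 ended the calls of S100a8, S100a9, Lcn2 and Timp1 (limma, adjusted p = 0.064, 0.072, 0.075 and 0.051). Quantile normalization, centring, a pseudocount of 1, the filter on the median gene, both other choices of probe set and eBayes with trend and array weights left 7 of the 10 called. With the replicate block 889 genes were called (672 higher, 217 lower) and 6 of the 10, Lcn2 losing its call (limma, adjusted p = 0.061). Same-numbered arrays had correlations of deviations of -0.0086, 0.25 and 0.20, and replicates 2 and 3, but not replicate 1, correlated best with their own number. Deviations of 3 arrays from their mean depend on each other, so these correlations cannot decide whether the mice were paired. The numbers were not taken to pair the mice because the labels do not pair them. A shared batch of some replicates was not tested. Of 62 other named genes 41 were called, and 3 of these kept the call under every alternative run: Ccl9, Hpd and Olfm4. None of these 62 genes changed sign under the alternatives run. Genes named beyond the naming rule were not refitted one by one. Orm1 has no value under either filter on dim genes. The cause of these shifts was not tested.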

Other observations

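Other cell type lists are given beside 3.82% of all genes called higher and 1.52% called lower. Of 8 goblet cell genes 4 rose with DBZ, Fcgbp, Agr2, Spdef and Atoh1, and 0 fell. Atoh1, the transcription factor that sets secretory fate, was at 2434, 2740 and 3257 intensity units in DBZ replicates 1, 2 and 3, against 614, 870 and 748 in vehicle replicates 1, 2 and 3 (limma, adjusted p = 0.0097). Of 8 crypt base stem cell genes 2 rose, Rgmb and Sox9, and 2 fell, Olfm4 and Ascl2. Olfm4, a secreted glycoprotein of crypt base cells known as a Notch target, was at 35.9, 18.6 and 29.9 in DBZ arrays and 3627, 4234 and 5177 in vehicle arrays (limma, adjusted p = 0.00042). Of 7 Paneth cell genes 2 rose, Mmp7 and Pla2g2a. The other 5 had negative differences, 3 of them with all DBZ arrays below all vehicle arrays (15.8% of all genes), and the list median was -0.30. Of 9 enterocyte and 5 B and plasma cell genes 0 were called (limma; 3 and 0 had an unadjusted p under 0.05). In the 4 goblet genes, unlike the 10 acute phase and calprotectin genes, DBZ replicate 2 was not the lowest DBZ array.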
